A study of Mus musculus with 10 samples.

Results

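The genes described here were 8 genes of the fibroblast growth factor (Fgf) pathway with known roles in the cochlea: the ligand genes Fgf20, Fgf10, Fgf9, Fgf8 and Fgf3 and the receptor genes Fgfr1, Fgfr2 and Fgfr3. They were chosen by name and not by a cut on their values, but with earlier results of these data known. The 8 genes stand among 20665 autosomal coding genes of the mouse gene table (mm10 build). All peaks within 100 kb of their bodies were taken from 5 ATAC-seq and 3 Sox4 CUT&RUN peak lists, and 119 of 76694 open regions of the series lay there. ATAC-seq marks open chromatin by the insertion of a transposase, and CUT&RUN marks the DNA that an antibody-bound nuclease cuts out. The wildtype group held 3 ATAC libraries and the SoxC double knockout group held 2, all of mouse cochlear duct at E13.5, from epithelium that the protocol freed with dispase and collagenase and that the titles call whole organ. The ATAC labels named neither the deleted SoxC genes nor a Cre driver. The strain of the series' single-cell knockout library was Pax2creSoxCfl/fl, in which Cre expressed from Pax2 sequences acts on floxed SoxC alleles. The Sox4 libraries were 3 replicates of wildtype progenitors at the same age, sorted for p27, with a guinea pig antibody to Sox4. The labels did not say whether replicates came from separate embryos or litters, so the spread between libraries may be technical.

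Fgf ligands are secreted proteins that bind receptor tyrosine kinases together with heparan sulfate, and the receptors signal through Frs2 and the Ras and MAP kinase cascade to ETS factors of the Etv group and to feedback inhibitors of the Sprouty and Dusp families. In the developing inner ear Fgf3 and Fgf10 act in induction and outgrowth of the otic epithelium, largely through the epithelial form of Fgfr2. Fgf20 is made in the prosensory domain and acts through Fgfr1 on the progenitors of the organ of Corti, Fgf9 from the epithelium acts on the surrounding mesenchyme, and Fgf8 from inner hair cells acts on Fgfr3 in the neighbouring pillar cell precursors.

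The starts of 5 of the 8 genes stood in the RefSeq promoter table (GRCm38.p6, the build of mm10), with 6 starts in all. The 3 promoters shown differ in the accessibility measured at them, and each is given as the 250 bases before the start on the plus strand, with CG dinucleotides in capitals. The Fgf10 stretch (chr13:118714449-118714698) lay in an ATAC peak of all 5 libraries that ranked higher in every wildtype library. The first Fgfr3 start (chr5:33721474-33721723) lay in a weak peak of all 5 lists. The Fgf3 stretch (chr7:144838362-144838611) lay in a peak of both knockout lists and of no wildtype list.
Fgf10: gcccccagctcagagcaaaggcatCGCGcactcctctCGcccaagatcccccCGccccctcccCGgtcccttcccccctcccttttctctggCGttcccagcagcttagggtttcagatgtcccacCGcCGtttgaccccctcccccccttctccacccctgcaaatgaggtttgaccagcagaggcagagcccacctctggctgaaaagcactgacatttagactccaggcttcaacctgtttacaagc
Fgfr3: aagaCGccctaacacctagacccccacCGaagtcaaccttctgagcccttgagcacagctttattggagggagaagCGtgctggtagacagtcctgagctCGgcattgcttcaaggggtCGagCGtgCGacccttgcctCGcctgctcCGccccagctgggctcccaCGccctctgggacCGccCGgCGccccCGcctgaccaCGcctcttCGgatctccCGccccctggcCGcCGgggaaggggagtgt
Fgf3: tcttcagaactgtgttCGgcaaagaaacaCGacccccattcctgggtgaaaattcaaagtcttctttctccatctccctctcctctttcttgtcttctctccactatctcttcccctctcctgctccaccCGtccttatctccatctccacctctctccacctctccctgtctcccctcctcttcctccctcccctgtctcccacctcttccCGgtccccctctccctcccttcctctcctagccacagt
The Fgf10 stretch had 8 CG dinucleotides and 61.2% G and C bases, the Fgfr3 stretch had 19 and 66.8%, and the Fgf3 stretch had 4 and 55.2%. Over all autosomal starts of the table the medians were 6 and 52.4%. None of the 6 starts held any of 5 motifs searched on both strands without mismatch. These were ACAAAG, a core of SOX sites that is also part of TCF/LEF sites, ACAATG (SOX), TTTGAT (TCF/LEF), CCGGAAG (ETS) and CACGTG (E-box). They occurred in 16.3%, 10.3%, 10.6%, 7.01% and 6.02% of 31396 promoter stretches of the same length.

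Open chromatin near Fgf10 was stronger in the wildtype libraries by each of 2 ways of ranking peaks. By -log10 p, Fgf20 also had more strong regions in the wildtype, and Fgf3, Fgf8, Fgfr2 and Fgfr3 had more in the knockout, but by fold enrichment the libraries of the groups met or overlapped at these 5 genes. An open region is a window reaching 250 bp to either side of the summit of one of the 50000 strongest peaks of a library, joined across libraries where windows overlap. Strength is the rank of a peak by its -log10 p within its own list, with rank 1 the strongest. Of the 119 regions near the 8 genes, 37 were open in all 5 libraries, or 31.1% against 37.2% of all regions. Open in the wildtype alone, that is in each of its 3 libraries and in no knockout library, were 7 regions, or 5.88% against 6.65% of all regions. Open in the knockout alone, in both of its libraries and in none of the wildtype, were 11, or 9.24% against 7.75%. The shares open in the wildtype alone and in the knockout alone were near those of the genome. Without wildtype replicate 1, the library with the most regions near the genes in its group, the counts were 12 and 17, and without knockout replicate 2 the second count was 23.

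Presence among the strongest peaks is a matter of degree. All 7 regions open in the wildtype alone were matched by a peak in each full knockout list, as were 91.9% of such regions over the genome. Of the 11 open in the knockout alone, 3 were matched by a peak in each of the 3 full wildtype lists (36.9% over the genome), 7 in a pair of them and 1 in a single list. The ranks were therefore compared as well. In 16 regions every wildtype rank was stronger than every knockout rank (13.4% against 19.1% of all regions), and in 37 regions every knockout rank was stronger (31.1% against 26.0%). The ranks of the remaining 66 overlapped. The gap of a separated region, used to choose examples, is the distance between the groups' nearest ranks, with ranks past 50000 set to the end of the kept list. When peaks were ranked by fold enrichment in place of -log10 p, the split near the 8 genes was 32 stronger in the wildtype to 26 stronger in the knockout, with 22.4% and 22.3% of all regions. The preponderance of the knockout near these genes thus did not hold under the other ranking. The knockout lists had higher -log10 p at rank 50000 (104 and 50.5, against 19.0, 10.5 and 8.75 in the wildtype), and their names stated a p threshold that the wildtype names did not. Genotype and the making of the lists cannot be told apart.

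**Figure D1:**
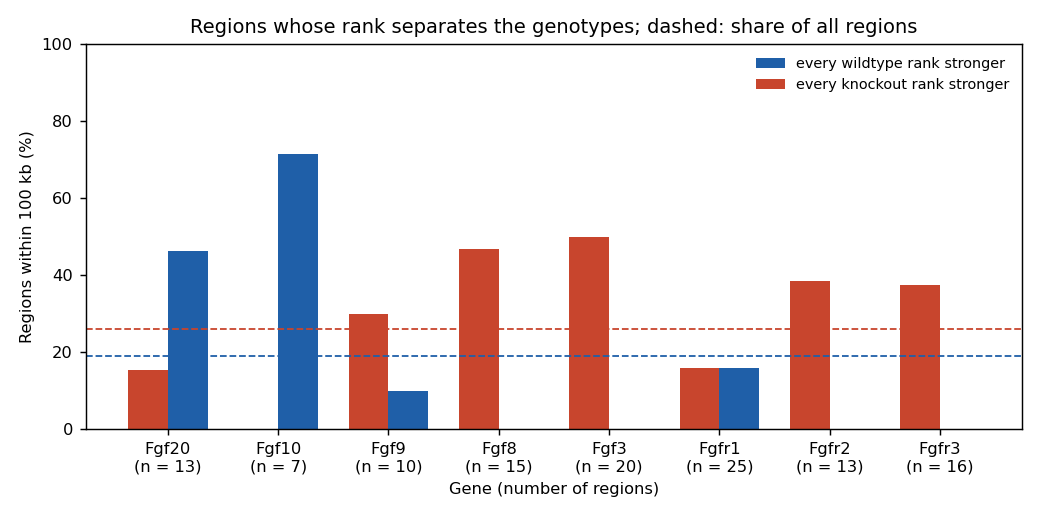
Share of the regions within 100 kb of each gene in which all 3 wildtype ranks were stronger than both knockout ranks (blue) or the reverse (red), with peaks ranked by -log10 p. Dashed lines give the shares over all regions, 19.1% and 26.0%. Blue bars stand highest at Fgf10 and Fgf20 and are absent at Fgf8, Fgf3, Fgfr2 and Fgfr3, where ranking by fold enrichment gave 3, 3, 3 and 5 regions stronger in the wildtype.

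The balance of the 2 directions differed between the genes. Near Fgf10 and Fgf20 together there were 20 regions, of which 11 were stronger in the wildtype (55.0%) and 2 in the knockout (10.0%). Near the other 6 genes there were 99 regions, of which 5 were stronger in the wildtype (5.05%) and 35 in the knockout (35.4%). This grouping of genes was made after their values were seen and was not tested. The preponderance of the knockout at the other 6 genes did not hold by fold enrichment. There, regions stronger in the wildtype and in the knockout numbered 3 and 7 at Fgf3, 3 and 1 at Fgf8 and 2 and 2 at Fgf9. At the receptor genes they numbered 7 and 4 (Fgfr1), 3 and 5 (Fgfr2) and 5 and 4 (Fgfr3), against 5 and 0 at Fgf10 and 4 and 3 at Fgf20. By role, and again by -log10 p, 12 of 65 regions near ligand genes and 4 of 54 near receptor genes were stronger in the wildtype. In the knockout 22 and 15 were stronger. Counted per library, every wildtype library had more regions than every knockout library at Fgf10 and Fgf20, which was the case for 10.5% of coding genes. Every knockout library had more at Fgf3, Fgf8, Fgfr2 and Fgfr3, which was the case for 33.1% of coding genes. The exact two-sided permutation test over the 10 splits of 5 libraries cannot give a p below 0.1, and over all coding genes the smallest Benjamini-Hochberg adjusted p was 0.34, so no gene passed.

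**Figure D2:**
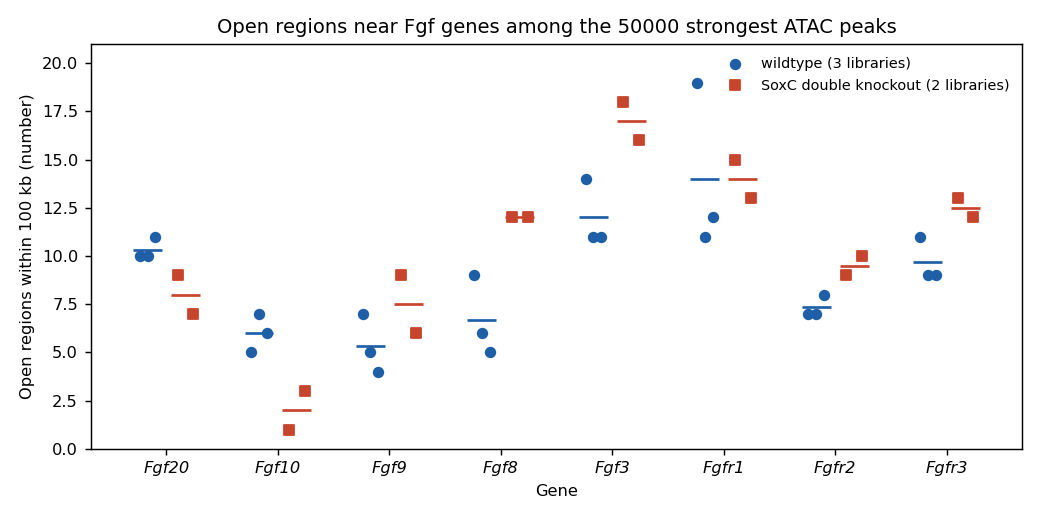
Number of open regions within 100 kb of each gene in each ATAC library, with group means as bars. The wildtype libraries (blue circles) lie above the knockout libraries (red squares) at Fgf20 and Fgf10 and below them at Fgf8, Fgf3, Fgfr2 and Fgfr3, and the groups overlap at Fgf9 and Fgfr1. Peaks are ranked by -log10 p, and by fold enrichment the groups stayed apart at Fgf10 alone.

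The genes also differed in their surroundings. Fgf10 had 1 other coding gene within 500 kb, Fgfr2 had 4, Fgf20 had 7 and Fgf9 had 9, while Fgf3 had 13, Fgf8 had 16 and Fgfr1 and Fgfr3 had 18 each. Of the 119 regions, 57 had one of the 8 genes as their nearest coding gene. The part of gene density in the results was not tested. As a check of the tissue, open regions came within 1 kb of either gene end in 7 to 9 of 10 otic epithelial marker genes (Epcam, Cdh1, Pax2, Sox2 and others), 2 to 3 of 5 mesenchymal, 3 of 5 neuronal, 3 of 4 glial and melanocyte and 0 of 5 blood, endothelial and macrophage markers. The knockout libraries had 9 epithelial and 2 to 3 mesenchymal markers. The ranks at single markers were less alike than these numbers. At the gene ends, 2 of 5 mesenchymal, 2 of 5 neuronal and 1 of 4 glial and melanocyte markers were stronger in every wildtype library and 0 in every knockout library. Of the epithelial markers, 2 were stronger in the wildtype and 3 in the knockout. The neuronal gene Isl1 ranked 1812, 1375 and 900 in the wildtype against 23673 and 24488 in the knockout, and Pou4f1 ranked 3425, 3841 and 2503 against 18926 and 17724. The mesenchymal gene Tbx18 ranked 12893, 5853 and 8805 against 39488 and 30877. Gata3, of the prosensory domain, was open at its ends in each wildtype and no knockout library, and Lfng, a modifier of Notch, was the reverse. The markers named here were chosen after their values were seen. These markers of other cell types moved in the same direction as the regions near Fgf10. The part of other cell types in the results was not tested, and in bulk tissue fewer cells of a type and less accessible chromatin per cell cannot be told apart.

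Fgf10, a ligand of the medial side of the cochlear duct and of the otic vesicle before it, had 7 regions, and none was stronger in the knockout. The 3 wildtype libraries had 5, 7 and 6 of them (mean 6 ± 1, SD, n = 3) and the knockout libraries had 1 and 3 (mean 2 ± 1.41, SD, n = 2), so the groups did not overlap. The difference of 4 regions was at or above that of 97.8% of coding genes, where the median difference was -0.67 (exact permutation test p = 0.1, adjusted p = 0.34). Of all 7 regions, 5 were stronger in every wildtype library. Ranked by fold enrichment, Fgf10 had 6, 7 and 7 regions in the wildtype against 0 and 1 in the knockout, with 5 stronger in the wildtype and 0 in the knockout.

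The region over the Fgf10 start (chr13:118714122-118715383), which holds the printed promoter stretch, was the only one near this gene open in all 5 libraries. It ranked 20362, 13966 and 14893 in wildtype replicates 1 to 3 and 44062 and 46540 in the knockout. Its fold enrichment over the local background was 6.55, 5.95 and 5.00 in wildtype and 5.41 and 4.75 in knockout libraries, so the ranks separated the groups and the folds did not. A second region began upstream, 2494 bp from the start (chr13:118711447-118712205). It ranked 20424, 10883 and 10337 in the wildtype, 40272 in knockout replicate 2 and 61177, outside the strongest 50000, in knockout replicate 1. Thus both regions at the promoter side of Fgf10 ranked lower in each knockout library.

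Both regions open in the wildtype alone lay far from Fgf10. By that definition they have no knockout peak among the strongest 50000. A region 71102 bp before the start (chr13:118643067-118643597) had ranks 44017, 25166 and 27123 in the wildtype, while the overlapping peaks of the full knockout lists ranked 138592 and 150653. Its folds were 7.99, 8.18 and 6.92 in wildtype and 3.35 and 2.59 in knockout libraries. On the other side, 95215 bp past the gene (chr13:118887788-118888304), a region ranked 33056, 14252 and 10762 in the wildtype against 94511 and 104869 in the knockout lists. The folds there were 7.24, 8.77 and 8.06 against 5.24 and 3.73. In both regions the folds of the groups did not overlap. A neighbour of the second (chr13:118886056-118887010) ranked 22919, 9581 and 5028 against 65478 and 49815, and held the strongest peak near the gene in wildtype replicates 2 and 3. No other coding gene was nearer to any of the 7 regions.

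**Figure D3:**
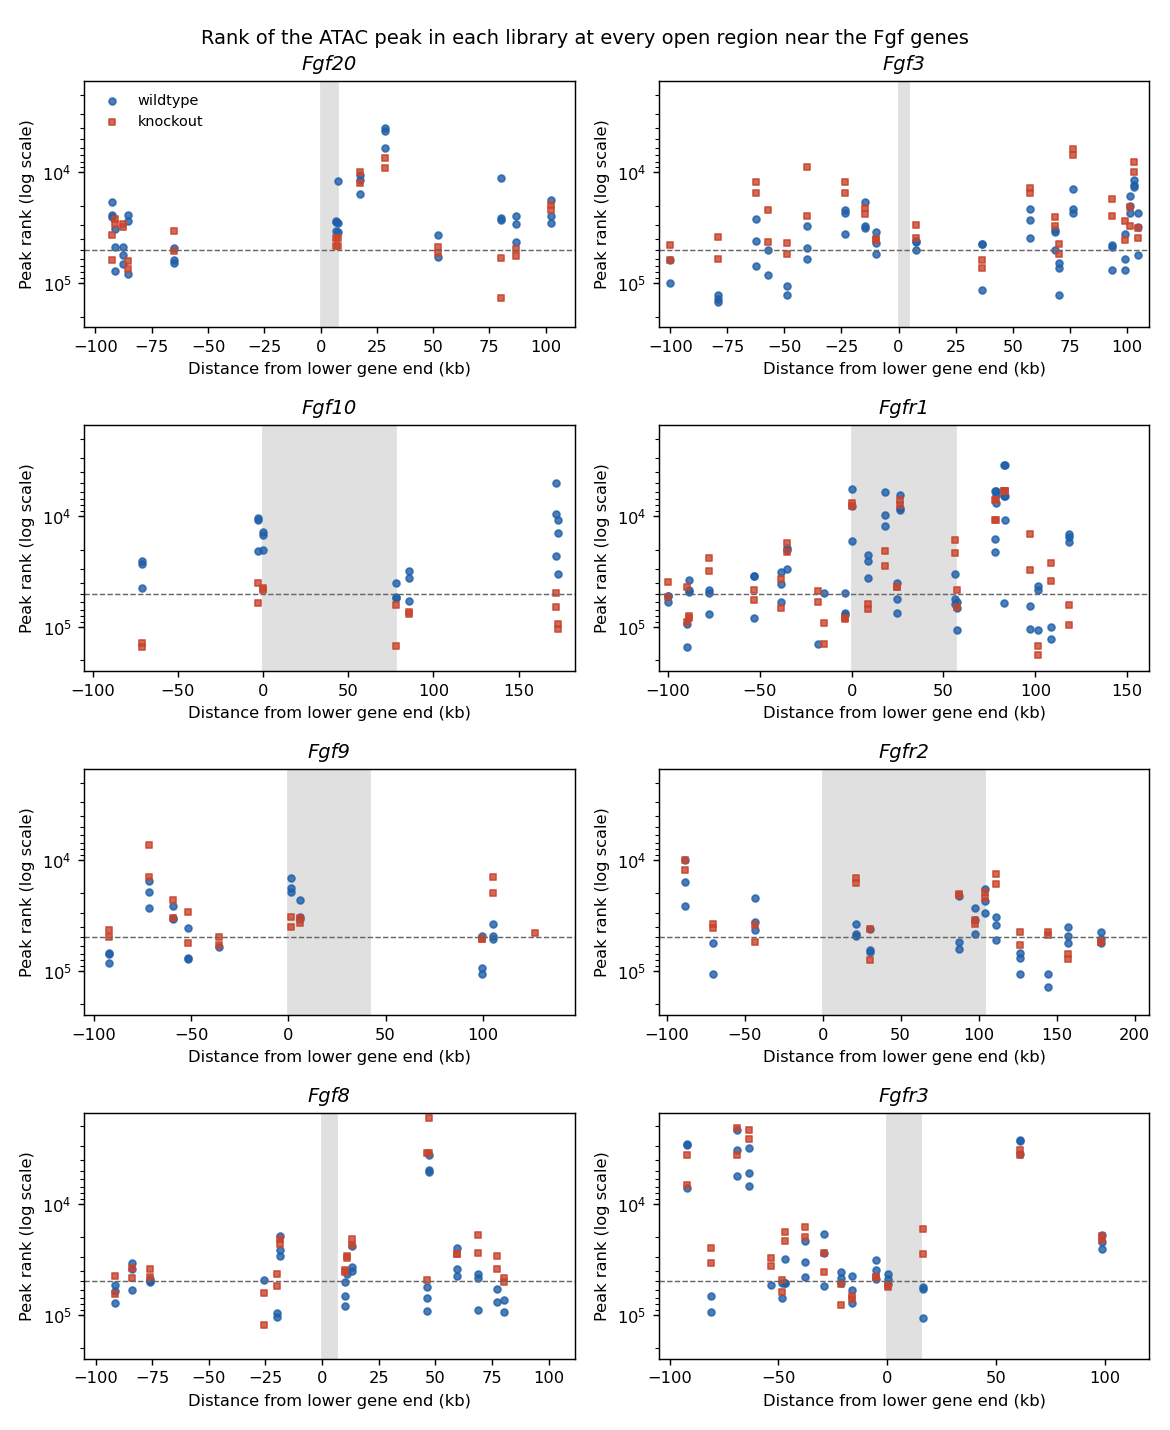
Rank of the strongest overlapping ATAC peak of the full list in each library (log scale, strongest at the top) at every open region, against the distance of the region from the lower end of the gene. Blue circles are the 3 wildtype and red squares the 2 knockout libraries, grey marks the gene body, and the dashed line marks rank 50000. A list without a peak at a region gives no point. A region is drawn because at least 1 library has it among its strongest 50000, so points below the line belong to libraries that did not select it. At the Fgf10 start, open in all 5 libraries, the wildtype points lie at 13966 to 20362 and the knockout points at 44062 and 46540.

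Fgf20, the prosensory ligand, had 13 regions, 6 of them stronger in the wildtype and 2 in the knockout. The wildtype libraries had 10, 10 and 11 regions and the knockout libraries 9 and 7, which did not overlap (difference 2.33, at or above 93.3% of coding genes; exact permutation test p = 0.1). Ranked by fold enrichment, the libraries had 9, 10 and 10 against 9 and 10, with 4 regions stronger in the wildtype and 3 in the knockout, so the separation by number was lost. With the 100000 strongest peaks the direction turned, with 12, 14 and 12 against 16 and 16. With the 25000 strongest peaks by -log10 p, Fgf20 had 3, 4 and 7 regions in the wildtype against 3 and 3 in the knockout. The mean difference there was 1.67, but the groups met at 3. The separation of the libraries at Fgf20 thus held neither with 25000 nor with 100000 peaks. At Fgf10 the mean difference kept its sign under each of 14 alternatives tried, but the separation of the libraries did not hold under all. With the full lists and within 50 kb, 0 of the 8 genes had more regions in every wildtype library. The full lists held 16, 20 and 29 peaks near Fgf10 in the wildtype against 21 and 14 in the knockout.

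The regions at the Fgf20 gene itself lay at its upper end, and the table gave no start for it. The region over that end (chr8:40286342-40287344) was open in all 5 libraries, at ranks 28605, 34444 and 12055 in the wildtype against 39300 and 46621 in the knockout. Just inside the gene, chr8:40285509-40286037 was open in the wildtype alone, at ranks 28152, 27506 and 33549. The same knockout peaks as at the gene end, ranked 39300 and 46621, reached over it with their summits outside. In folds the groups overlapped there, at 6.57, 5.91 and 4.39 against 6.72 and 5.63. A second region open in the wildtype alone (chr8:40358825-40359344) lay inside the neighbouring gene Micu3, which encodes a regulator of mitochondrial calcium uptake. Its ranks were 27052, 11338 and 26060 against 135978 and 58820, and its folds were 12.1, 14.2 and 7.25 against 3.42 and 7.14. There the groups were apart by both measures, the folds of wildtype replicate 3 and knockout replicate 2 being close.

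The strongest Fgf20 region open in every library (chr8:40307693-40308208) also lay in Micu3, at ranks 4217, 3986 and 5970 in the wildtype against 9051 and 7418 in the knockout. A region 92182 bp below the gene (chr8:40186075-40186984), with Fgf20 as its nearest coding gene, ranked 25461, 18715 and 24436 in the wildtype, 36722 in knockout replicate 2 and 62419 in knockout replicate 1. This region carried a Sox4 site, described with the other Sox4 peaks. Close to it, chr8:40191289-40191791 was stronger in the knockout, at ranks 31326 and 29233 against 66780, 47007 and 56108 in the full wildtype lists. Both directions thus occurred within a few kb of each other.

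Fgf9, the ligand that signals from epithelium to mesenchyme, had 7, 5 and 4 regions in the wildtype against 9 and 6 in the knockout, and the groups overlapped. Of its 10 regions, 1 was stronger in the wildtype and 3 in the knockout. The wildtype-stronger region (chr14:58071909-58072427) lay within the gene as the table draws it and ended 259 bp before the listed start. It was open in all 5 libraries at ranks 14538, 19585 and 18025 against 32577 and 40260, the widest gap of any region near the gene that was open in all of them. In the opposite direction the widest gap, with the same limit on ranks, was 62711 bp past the gene (chr14:58175565-58176090), at 19971 and 14371 in the knockout against 48378, 37940 and 52058. Of the regions open in all libraries, the strongest by its weakest rank (chr14:57998665-57999543), inside Micu2, ranked 7378 and 14084 in the knockout and 15390, 19562 and 27269 in the wildtype. The region open in the knockout alone (chr14:57978074-57978576) was weak, at ranks 42998 and 49548, and lay in Micu2 as well. The region by the start and the 3 distant regions that separated the groups thus differed in direction.

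Fgf8, the hair cell ligand, had 9, 6 and 5 regions in the wildtype against 12 and 12 in the knockout, which did not overlap. Of its 15 regions none was stronger in the wildtype and 7 were stronger in the knockout. No region lay in or over the ends of the gene. The nearest of those open in the knockout alone (chr19:45746281-45746802) ranked 39396 and 41447, against 51042, 83813 and 67863 in the full wildtype lists, and its nearest coding gene was Npm3, which encodes a nucleoplasmin family chaperone. The other (chr19:45813237-45814242), in the potassium channel subunit gene Kcnip2, ranked 29764 and 38556 against 59095, 76657 and no peak. The widest gap, with ranks past 50000 set to that end, was also in Kcnip2 (chr19:45804911-45805435), at 19011 and 27584 against 42696, 47089 and 90083. In Npm3, chr19:45747386-45747890 ranked 30958 and 29493 against 43371 in wildtype replicate 1 and no peak in the other wildtype lists. The strongest region (chr19:45783356-45783910) lay in Oga, an enzyme that removes O-GlcNAc from proteins, at ranks 3642, 4963 and 5108 in the wildtype against 3491 and 1678 in the knockout. Of the 15 regions, 3 had Fgf8 as the nearest coding gene, so most of this count belonged to its neighbours. Ranked by fold enrichment, Fgf8 had 10, 6 and 6 regions against 6 and 8. The groups overlapped, and the mean difference, wildtype minus knockout, was 0.33.

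Fgf3, the otic induction ligand, had 14, 11 and 11 regions in the wildtype against 18 and 16 in the knockout, which did not overlap. Of its 20 regions 10 were stronger in the knockout and 0 in the wildtype. Its window holds Fgf4 and Fgf15, 2 further ligand genes, and Ccnd1, which encodes the cell cycle regulator cyclin D1. At the start itself no wildtype list had a peak, and the peaks of the full knockout lists ranked 51534 and 57957, just outside the strongest 50000. The region nearest to the gene (chr7:144846089-144846621), 2741 bp past its end, ranked 42696, 49953 and 41507 in the wildtype against 29980 and 39476 in the knockout. Among all 20, the widest gap between the groups, so limited, was in Ccnd1 (chr7:144931760-144932285), at 17492 and 24747 in the knockout and 45337, 75378 and 47100 in the wildtype. Next came chr7:144775998-144776521, at 12178 and 15232 against 26197, 69473 and 41507. The single region open in the knockout alone (chr7:144781256-144781770) ranked 21704 and 42587. Of the regions open in all 5 libraries, the strongest by its weakest rank (chr7:144941400-144941913), next to Ccnd1, ranked 11775, 12983 and 13537 against 9905 and 7996. By fold enrichment Fgf3 had 3 regions stronger in the wildtype and 7 in the knockout. Only 5 of the 20 regions had Fgf3 as their nearest coding gene. Over those alone the mean difference, wildtype minus knockout, was -0.67, against -5 over the whole window. Within 50 kb of the gene it was -0.5.

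Fgfr1, the receptor of the prosensory progenitors, had the most regions of the 8 genes, 25, and a mean of 14 per library in both genotypes. The wildtype libraries had 19, 11 and 12 and the knockout libraries 15 and 13 (± 4.36 and ± 1.41, SD, n = 3 and 2), and the groups overlapped. The equal means rest on wildtype replicate 1: without it the difference was -2.5. With the full lists, 36, 36 and 33 peaks stood against 46 and 41. Regions stronger in the wildtype and in the knockout numbered 4 each. The region over the lower gene end (chr8:25518472-25518994) ranked 5678, 8051 and 16765 in the wildtype against 8121 and 7667 in the knockout, which overlapped. Of the regions open in all libraries, the strongest by its weakest rank, inside the gene at chr8:25544800-25545312, ranked 6415, 8870 and 8449 against 7900 and 7215. By fold enrichment Fgfr1 had 16, 12 and 13 regions against 10 and 13, with 7 stronger in the wildtype and 4 in the knockout.

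Single regions in and around Fgfr1 did separate the groups. Inside the gene, chr8:25536608-25537601 was open in all libraries at ranks 9704, 12233 and 6068 in the wildtype against 27982 and 20642 in the knockout, and Sox4 replicate 2 had a peak there at rank 5264. Also inside, chr8:25527342-25527900 was open in the wildtype alone, at 22388, 25166 and 36490 against 62015 and 69305 in the full knockout lists. A further region open in the wildtype alone (chr8:25636742-25637294), in the histone methyltransferase gene Nsd3, ranked 17115, 15259 and 14433 against 95207 and 63709. The third, chr8:25430080-25430871, was weak, at 46305, 37940 and 48107. In the opposite direction, 2 regions in Nsd3 were open in the knockout alone: chr8:25615732-25616234 at ranks 14620 and 30829, and chr8:25627169-25627688 at 26669 and 38716. Below the gene, chr8:25440565-25441457 ranked 31361 and 23898 in the knockout and 49278, 75551 and 46505 in the wildtype. Thus both directions stood side by side near this gene.

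Fgfr2, the receptor of Fgf3 and Fgf10 in otic epithelium, had 7, 7 and 8 regions in the wildtype against 9 and 10 in the knockout, which did not overlap (exact permutation test p = 0.1, adjusted p = 0.34). None of its 13 regions was stronger in the wildtype and 5 were stronger in the knockout. The region by its start (chr7:130266053-130266583) ended 225 bp inside the gene from the listed start and ranked 18366, 23390 and 30001 in the wildtype against 19350 and 22067 in the knockout, with no separation. The widest gap in the gene was at chr7:130183852-130184405, 82403 bp from that start, at 14646 and 16154 in the knockout and 46846, 37940 and 48107 in the wildtype. A region 6281 bp before the start (chr7:130273089-130273613) ranked 13401 and 16413 against 32736, 53062 and 38882. The regions open in the knockout alone (chr7:130091894-130092396 and chr7:130306749-130307279) were weak, at ranks 41311 and 37943 and at 44500 and 47477. The strongest region by its weakest rank (chr7:130073968-130074485), 87966 bp below the gene, ranked 15810, 9947 and 26060 against 12300 and 9910. Of the 13 regions 12 had Fgfr2 as the nearest coding gene. By fold enrichment the libraries had 11, 9 and 8 regions against 11 and 12, so that wildtype replicate 1 tied with the lower knockout library.

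Fgfr3, the receptor of pillar cell precursors, had 11, 9 and 9 regions in the wildtype against 13 and 12 in the knockout, which did not overlap. None of its 16 regions was stronger in the wildtype and 6 were stronger in the knockout. The region over the gene start (chr5:33721453-33722406), which holds the printed stretch, was weak in every library. It ranked 48127, 52542 and 43278 in the full wildtype lists and 54293 and 56598 in the knockout lists. Both knockout ranks were the lower ones, but the wildtype was not in the strongest 50000 in each library either, so the region was not counted as separated. At the opposite end, 785 bp past the gene, chr5:33737853-33738360 was open in the knockout alone, at ranks 16945 and 28267 against 55783, 58875 and 106650. The other regions open in the knockout alone lay in Slbp (chr5:33640561-33641068, ranks 25054 and 34157) and in Tacc3 (chr5:33668159-33668665, ranks 30751 and 36052). The strongest region by its weakest rank (chr5:33782544-33783076) lay in Letm1 and ranked 3576, 2633 and 2696 against 3262 and 3594. Only 5 of the 16 regions had Fgfr3 as their nearest coding gene, and over those alone the wildtype libraries had 0.67 regions more on average, so the direction turned. By fold enrichment the libraries had 12, 8 and 10 against 10 and 12, with 5 regions stronger in the wildtype and 4 in the knockout.

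Most strong Sox4 peaks near the 8 genes were found in a single replicate. The full lists held 129, 64 and 31 peaks there in replicates 1 to 3. A site was a window found among the 20000 strongest peaks of at least 2 of 3 replicates. Of 60 windows near the 8 genes, 57 came from a single replicate and 3 were sites, of which 1 stood in all 3 replicates. Over the genome 2117 of 72520 windows were sites. Sites lay near 2 of the 8 genes, Fgfr3 and Fgf20, and near 27.6% of all coding genes. Without Sox4 replicate 1 a single site was left. Peaks tied at the last kept rank were kept, which brought replicate 1 to 28782 peaks and replicate 3 to 26440. No library with a control antibody was used, so the background of the method was not measured.

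The sites in the Fgfr3 window were the strongest, and both lay more than 60 kb from the gene in other genes. The one in Tmem129, a ubiquitin ligase gene, was found in all 3 replicates at ranks 6393, 143 and 39, with fold enrichments of 5.11, 6.40 and 7.59. The ATAC region at this place (chr5:33657753-33658723) was open in all 5 libraries at ranks 3100, 5277 and 6867 in the wildtype against 2162 and 2616 in the knockout, and so was slightly stronger in the knockout. The other, in the histone mRNA binding protein gene Slbp, ranked 130 in replicate 1 and 128 in replicate 3, with a weak peak at rank 35554 in replicate 2. Its ATAC region (chr5:33652401-33652939) ranked 2148, 5565 and 3297 against 3644 and 2071, which overlapped. At both sites the chromatin was among the most open of the window in both genotypes.

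The third site was the one below Fgf20, where the ATAC region ranked lower in both knockout libraries. Replicate 2 had a peak at rank 696 there with a fold of 5.32. Replicate 1 had one at rank 12525, a value it shared with 16258 peaks of its list, and replicate 3 had none. With tied peaks left out, 2 sites remained near the 8 genes. At the other genes the strongest Sox4 peak stood in a single replicate. In replicate 2 it ranked 617 at Fgfr2, 3431 at Fgfr1, 6002 at Fgf9 and at Fgf3, a rank shared by 4154 peaks, and 11326 at Fgf10. At Fgf8 it ranked 7077, in replicate 1. None of these 6 peaks overlapped an open region. Weaker ones did: of the 57 windows from a single replicate, 10 overlapped an open region. At Fgf3 a peak of replicate 3 with the near rank of 6107 overlapped a region open in all ATAC libraries. A full-list Sox4 peak of at least 1 replicate overlapped 28 of the 119 regions (23.5% against 18.6% of all regions), and peaks of at least 2 replicates overlapped 6 (5.04% against 3.45%). Of the 28, 9 were stronger in the wildtype and 9 in the knockout, against 24.3% and 25.7% of all regions with such an overlap.

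**Figure D4:**
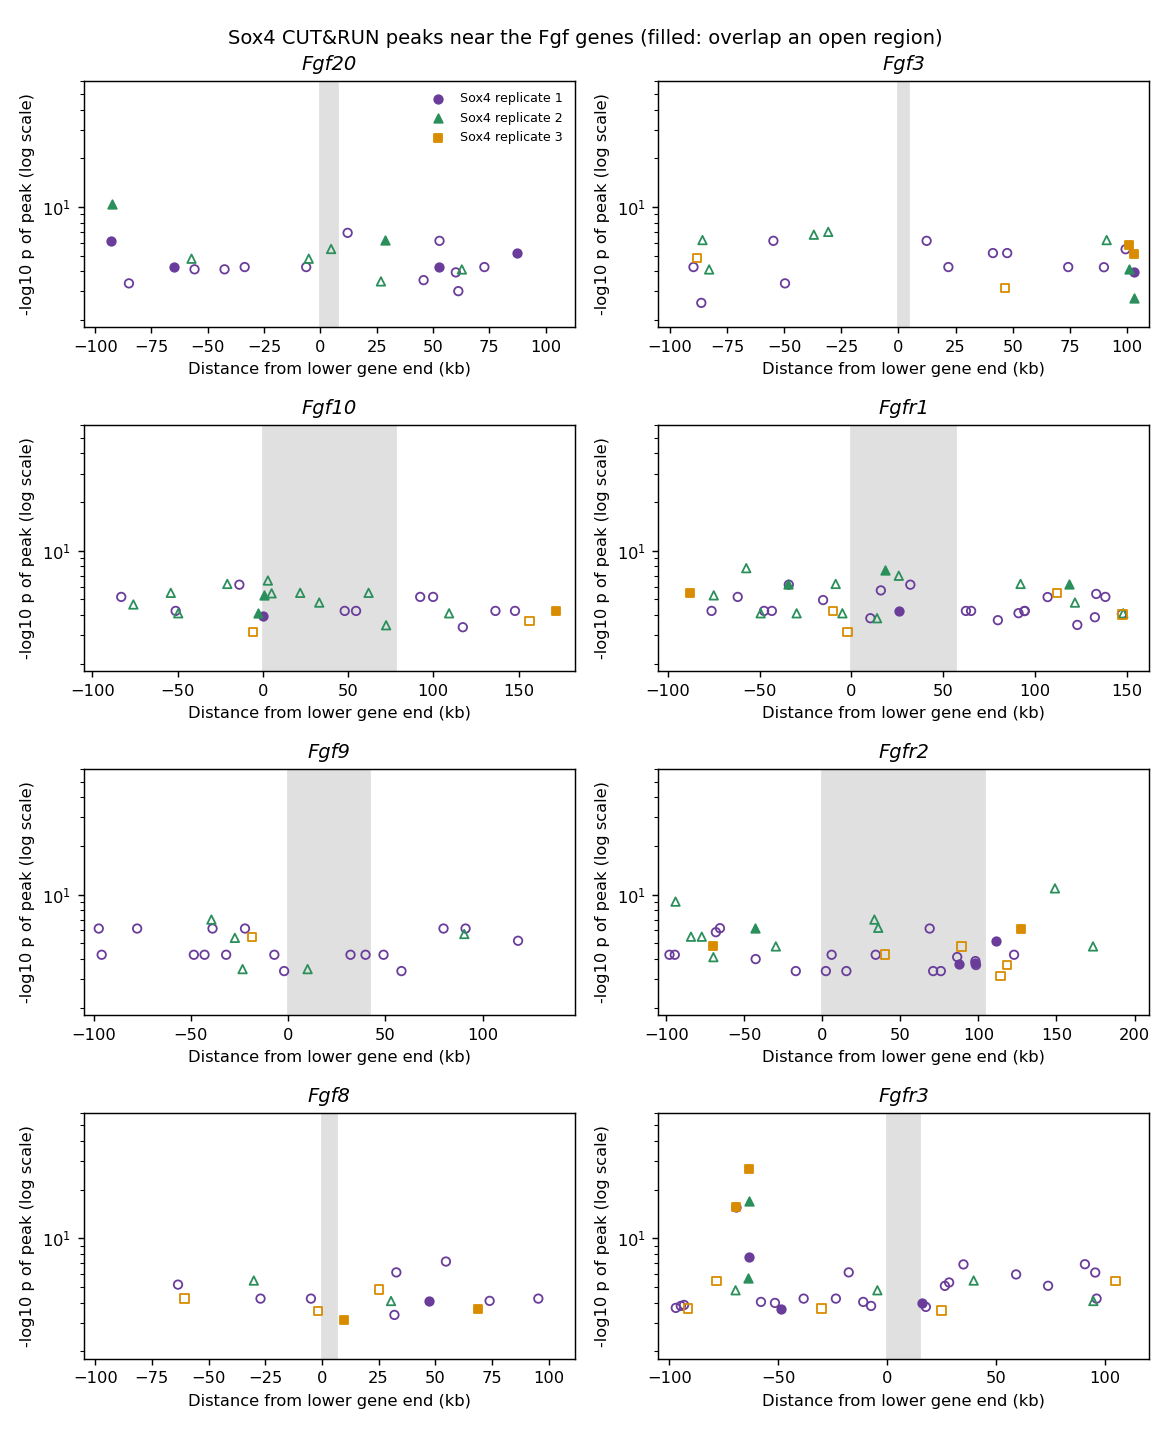
Sox4 CUT&RUN peaks of the full lists within 100 kb of each gene, by distance of the summit from the lower gene end and by -log10 p (log scale). Purple circles, green triangles and orange squares are replicates 1, 2 and 3, filled where the peak overlaps an open region, and grey marks the gene body. The highest points, in the Fgfr3 panel, belong to the sites in Slbp and Tmem129, and the next filled triangle, in the Fgf20 panel, belongs to the site below that gene.

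The wider pathway was followed in 35 further autosomal genes, a list drawn up with earlier results of these data known. A region open in the wildtype alone lay within 100 kb of 22 of them, against 31.4% of coding genes (3 of the 8 ligands and receptors above). A region open in the knockout alone lay within 100 kb of 20, against 55.5% (6 of the 8). Summed over the 35 genes, the counts were 33 for regions open in the wildtype alone and 35 in the knockout alone. A region near several of these genes was counted for each. The shares of genes did not take into account how many regions lay near each gene. A Sox4 site lay near 11 of the 35 genes, against 27.6% of coding genes. Every wildtype library had more regions at 7 genes (10.5% of coding genes) and every knockout library had more at 11 (33.1%). By fold enrichment these were 4 (11.4%) and 4 (24.9%), with 24 genes near a region open in the wildtype alone (37.7% of coding genes) and 19 near one open in the knockout alone (54.6%). Among 10 targets and feedback inhibitors, 8 had a region open in the wildtype alone and 5 one in the knockout alone. Spry2, a Sprouty inhibitor of receptor signalling, had 6, 9 and 10 regions in the wildtype against 3 and 5 in the knockout, and Spry1 had 13, 12 and 12 against 9 and 9, so the groups did not overlap at either gene. By fold enrichment they met at Spry2 (4, 8 and 9 against 3 and 4) and stayed apart at Spry1 (12, 12 and 12 against 10 and 9). Etv4, an ETS target of Fgf signalling, had the opposite order, with 8, 7 and 5 against 11 and 10, and kept it by fold enrichment (9, 7 and 5 against 12 and 11). Dusp6, a MAP kinase phosphatase, had 11, 12 and 13 against 11 and 10, where the groups met at 11. Among the 3 intracellular Fgf-homologous factors, which bind sodium channels and are not secreted, Fgf14 had 9, 9 and 10 regions against 4 and 4 and Fgf12 had 13, 17 and 18 against 11 and 10. The remaining one, Fgf11, had the opposite order, with 13, 10 and 10 against 15 and 18. By fold enrichment Fgf14 had 7, 9 and 11 against 5 and 4, while the groups met at 10 for Fgf12. At Fgf11 they overlapped by fold enrichment, with 13, 9 and 10 against 9 and 14. Among 12 other ligands, 1 had more regions in every wildtype library and 4 in every knockout library, and among 6 transducers the numbers were 1 and 2. Fgf4 and Fgf15 share most of their window with Fgf3 and are not independent of it.

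The 5 counts of a gene were also compared with those of all coding genes over 1 Mb away, by Euclidean distance of log2(regions + 1) over the 5 ATAC libraries. The gene most like Fgf10 was Tas2r118, at a distance of 0.38, and the one most like Fgf20 was Ndufc2, at 0.15. For Fgf3 it was Peli3, with the same 5 counts (distance 0), for Fgf8 Slc4a8 (0.12), for Fgf9 Pde6c (0.23) and for Fgfr1 Cd9 (0.26). At Fgfr2 4 genes and at Fgfr3 6 genes were equally near. Fgf10 was the farthest from its nearest match of the 8 genes. The single-cell RNA tables of the series gave no gene names and were not used here, so whether expression of the 8 genes moved with these regions was not analysed here.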

How the data were processed

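Wildtype (3) and SoxC double knockout (2) ATAC libraries and 3 Sox4 CUT&RUN replicates of mouse cochlea at E13.5 were grouped by their titles. The authors deposited MACS2 peak lists, per the submitters' processing notes, which also named STAR, deepTools and UMI-tools, with no MACS2 version. Per peak, the deposited fold enrichment is a ratio over the local background, and the deposited significance is given as -log10 of p and of q. The lists hold no read counts, so the depth behind each peak is unknown and no interval was given. Autosomes alone were used, since chromosomes X and Y were missing from the wildtype lists. A second deposited list of Sox4 replicate 1 served only as an alternative. The deposited single-cell tables gave no gene names and were not used.

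Overlapping peaks of a list were merged and ranked by -log10 p, ties sharing the best rank. The 50000 strongest ATAC and 20000 strongest Sox4 peaks, with ties, became 501-bp windows, which were joined across libraries. Genes came from a RefSeq table of the mm10 build, matched by symbol. Regions were counted within 100 kb of gene bodies for every autosomal coding gene, and the counts were compared by an exact permutation test over libraries with Benjamini-Hochberg adjustment. The members, lists and most alternatives were chosen with earlier results of these data known. Named were, per gene, the strongest region open in all libraries, the region at the start or gene end, regions open in 1 genotype alone, up to 2 separated regions per direction, and Sox4 sites. Alternatives changed the number of peaks, the ranking, the window, the distance, the gene assignment and the libraries. Scripts were tested on simulated lists (Python 3.11.15, pandas 2.3.3, numpy 2.4.6, scipy 1.17.1).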

Additional observations from a re-analysis of the deposited data

How the results depend on the processing

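Counts near the 8 genes depended on the number of peaks, the ranking and the distance, and the cause of each change was not tested beyond the larger or smaller number of regions an alternative holds. With the 25000 strongest peaks, 7 regions were open in the knockout alone and 13 in all 5 libraries, 7 were stronger in the wildtype and 17 in the knockout, and 1 gene had more regions in every wildtype library. With 100000 peaks, 4 were open in the wildtype alone, 20 in the knockout alone and 84 in all libraries, 25 were stronger in the wildtype and 75 in the knockout, and 1 gene had more in the wildtype. Ranked by fold enrichment, 14 were open in the wildtype alone and 6 in the knockout alone, 32 were stronger in the wildtype, 1 gene had more in the wildtype and 0 in the knockout. Within 50 kb the counts were 2, 4 and 24 for the 3 classes, 8 and 16 for the separated regions, and 0 and 2 genes. With only regions whose nearest coding gene was one of the 8, they were 4, 3 and 18, with 13 stronger in the knockout and 1 gene with more in the knockout. The full lists gave 0 genes with more in the wildtype and 7 with more in the knockout, and full peak extents gave 1 with more in the wildtype. The difference per gene reversed for Fgf20 with 100000 peaks (-3.33) and with the full lists (-9.5), for Fgf8 by fold enrichment (0.33) and for Fgfr3 with its own nearest regions (0.67). That of Fgf10 stayed between 1.5 and 7.33. Leaving out 1 library gave 8 to 12 regions open in the wildtype alone, 11 to 23 in the knockout alone, 37 to 44 in all, 18 to 24 stronger in the wildtype and 38 to 53 stronger in the knockout, and 2 and 4 to 6 genes. Sox4 sites numbered 9 among all peaks, 1 in all 3 replicates, 0 within 50 kb and 1 to 2 with a replicate left out. For 28510 regions open in all libraries, the deviation of each log10 rank from the mean of its genotype was taken. Between libraries with the same replicate number these deviations correlated at 0.122 and 0.106. With 2 knockout libraries their deviations mirror each other, so wildtype replicate 1 gave 0.122 with knockout replicate 1 and -0.122 with knockout replicate 2. With 2 pairs the numbers were not taken as pairs. Within a replicate block of numbers 1 and 2, 24 regions were stronger in the wildtype and 40 in the knockout. The counts per gene at other list lengths, some rank counts, the pathway genes by fold enrichment and the omission of ties were alternatives chosen after seeing the data.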
